A study of Mus musculus with 72 samples.

Results

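Nr3c1, Nr3c2, Esr1, Pgr, Thra, Thrb and Crym were followed across Pet1-lineage neurons of the adult mouse dorsal raphe (DR). The genes were chosen by name, as receptors for steroid and thyroid hormones together with the thyroid hormone-binding protein Crym and not by a cut on their levels. Of these 7 genes, 7 were found among the 17231 genes of the droplet (10X) table and 7 among the 24256 genes of the table of manually sorted cells.

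The 10X table held 2350 cells, pooled from mice labelled Pet1::Flpe+/-; hM3Dq+/+ (mean age P65.5) and mice labelled En1::cre+/-; Pet1::Flpe+/-; RC::FrePe+/- (mean age P59). The manual table held 70 single cells in 8 groups, each carrying Pet1::Flpe+/- and RC::FrePe+/- with 1 of 4 heterozygous Cre drivers. Sert::cre (driven by Slc6a4, and written Slc6a4-cre here) marked cells of the dorsolateral (dlDR, 10 cells), dorsomedial (dmDR, 9), ventromedial (vmDR, 8) and caudal DR (cDR, 6). P2ry1::cre marked 10 cells of the cDR, Npy2r::cre marked 10 cells of the cDR and 9 of the rostral DR (rDR), and Crh::cre marked 8 cells of the rDR. Sorted cells were taken at ages from P62 to P119. A Cre line labels every cell with a history of driver activity and not only cells with the driver transcript at the time of collection, hM3Dq is an engineered muscarinic receptor that the methods describe as not expressed here because no Cre was present in those mice, and all mice carried the Pet1::Flpe transgene. No label names the animal of a cell, so the 10X table counted as 1 sample and each sorted group as 1 sample. Ratios and differences below describe these cells and carry no test.

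Nuclear receptors are transcription factors that are switched by small lipophilic hormones. Corticosteroid, oestrogen and progesterone receptors are held by heat shock protein complexes until ligand binds, and then act on DNA as dimers, whereas thyroid hormone receptors sit on DNA with retinoid X receptors and repress or activate depending on the hormone. Serotonergic neurons of the raphe are a known target of glucocorticoids and of ovarian steroids, and thyrotropin-releasing hormone is made by some of them.

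UMIs per 10X cell ranged from 12320 to 134079 (median 59646), and reads on genes per sorted cell from 756872 to 7664103. Fev (the gene of Pet1 itself) had a UMI in 2350 of 2350 cells, and Tph2, the gene of the enzyme that makes serotonin in neurons, in 2339. Cells were grouped into 14 clusters numbered by fixed marker genes, with Gad2-rich clusters 2 to 6, Slc17a8-rich clusters 7 to 14 and cluster 1 apart from both. Cluster 13 was low in Tph2, at 644 CPM against 2913 in the remaining cells. Nr3c1, Esr1 and Crym were 3 of the 2000 genes used to form the clusters. Without the 7 genes, 2263 cells (96.3%) kept their cluster number. The number at the end of a cell barcode divided the cells into barcode set 1 (869) and barcode set 2 (1481). No barcode was shared by the sets. At least 3 Xist UMIs were found in 830 cells of set 1 and in 0 of set 2. At least 3 UMIs of Y-linked transcripts were found in 0 cells of set 1 and in 1442 of set 2. By these transcripts set 1 was female and set 2 male. Sex, genotype and run cannot be told apart between the sets. Levels in 10X cells are CPM, the UMIs of a gene summed over cells and scaled to the summed UMIs of all genes, with 95% intervals that cover counting error only.

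The 7 genes followed different patterns over the clusters. Thra was nearly level, with a 1.33-fold range (1.25 to 1.42) from the lowest to the highest cluster. Nr3c2 and Pgr had ranges of 2.10-fold and 3.37-fold, and Nr3c1 had a range of 7.29-fold, set by cluster 12. Esr1 had a 59.8-fold range (32.0 to 126), high in clusters 9 to 11 and 5. Crym was concentrated in cluster 2, and Thrb was sparse and highest in cluster 13. Levels over the clusters in the 2 barcode sets were most alike for Nr3c1 (Pearson r = 0.97 over 14 clusters), Crym (0.94) and Esr1 (0.93), and less closely for Thra (0.76), Nr3c2 (0.74), Pgr (0.69) and Thrb (0.65). The points of these correlations are clusters of the same pooled libraries.

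**Figure D1:**
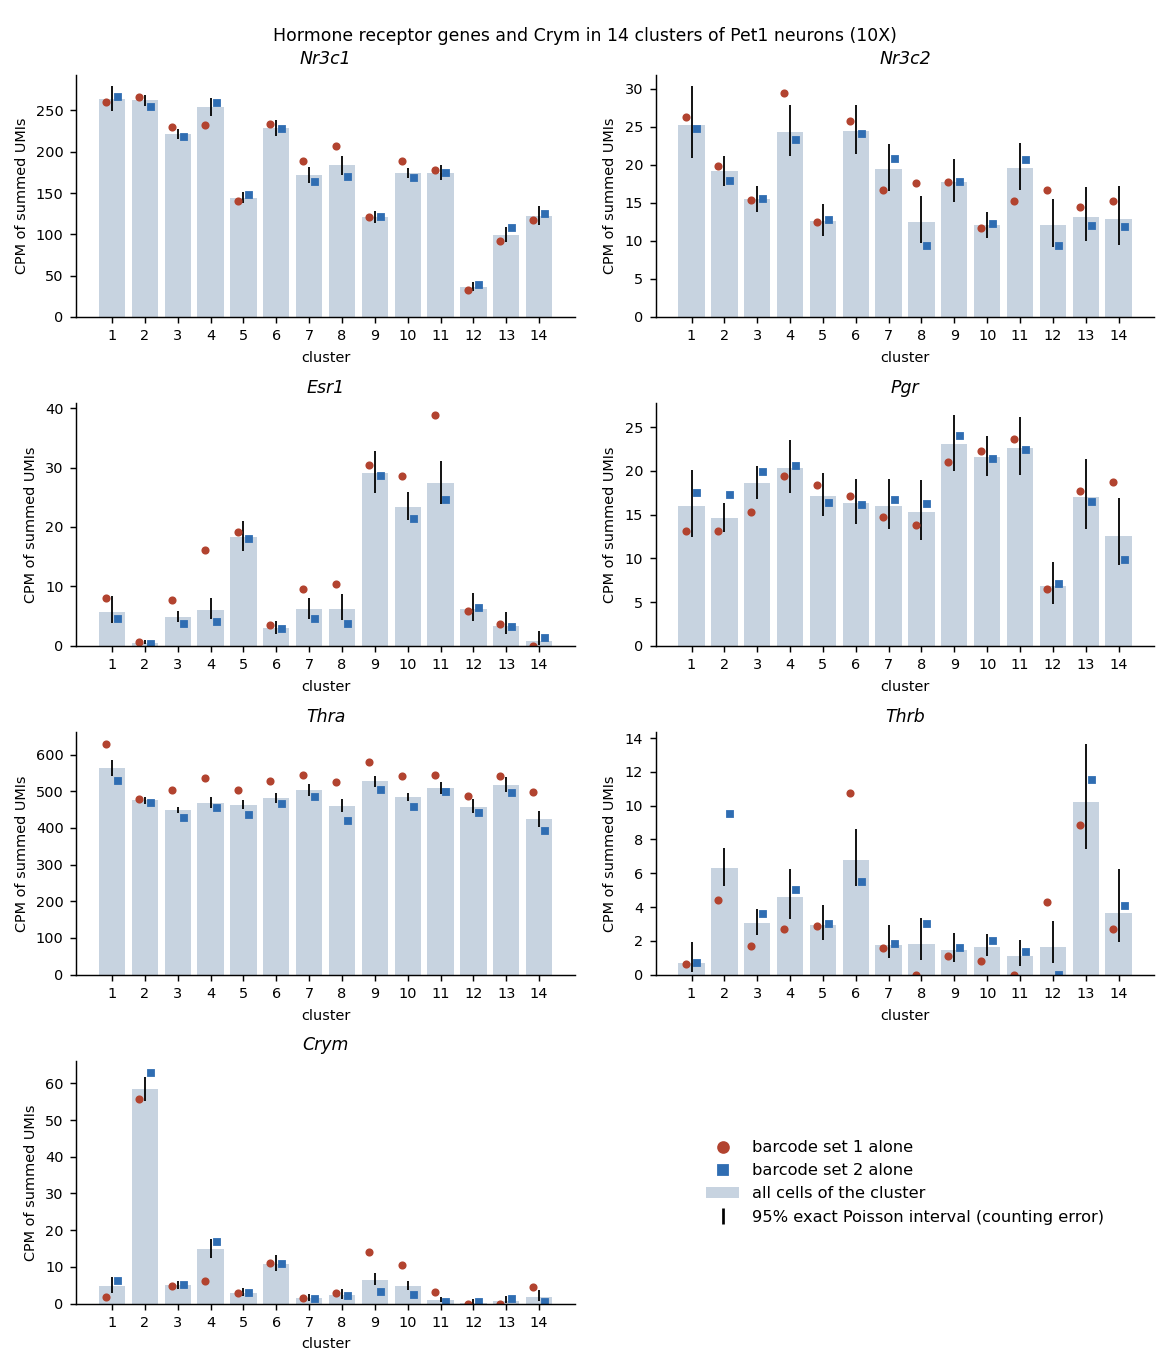
Level of each gene (y axis, CPM of summed UMIs) in the 14 clusters of 10X Pet1 neurons (x axis). Grey bars show all cells of a cluster, vertical lines the 95% exact Poisson interval for counting error, red circles barcode set 1 and blue squares barcode set 2. Nr3c1 drops to 36.2 CPM in cluster 12, Esr1 stands between 23.4 and 29.1 CPM in clusters 9 to 11, Crym reaches 58.4 CPM in cluster 2, and Thra stays between 424 and 564 CPM.

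Nr3c1 encodes the glucocorticoid receptor and lies at chr18:39410545-39519421 on the minus strand (GRCm38, gene models of GENCODE). It had a UMI in 96.7% of the 10X cells. The highest levels were 264 CPM (cluster 1), 262 (cluster 2), 254 (cluster 4), 229 (cluster 6) and 221 (cluster 3). With the 7 genes left out of the clustering, cluster 4 had 226 CPM and cluster 6 had 228. Middle levels were 184 CPM in cluster 8, 175 for cluster 11, 174 for cluster 10, and 172 in cluster 7. The remaining clusters had 144 CPM (cluster 5), 122 (cluster 14), 121 (cluster 9), 99.5 (cluster 13) and 36.2 (cluster 12). In this order of 14 levels, 5 of the 13 neighbouring pairs were separated in both barcode sets and 6 had Poisson intervals that did not meet. Clusters 2 to 6 together had 226 CPM and clusters 7 to 14 had 147, a log2 ratio of 0.62 (0.58 to 0.66).

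Cluster 12 stood apart in Nr3c1. Its 109 cells, marked by Met and P2ry1, had 36.2 CPM (31.1 to 41.9), which on the log2 scale lay -2.45 (-2.67 to -2.24) from the level of the remaining cells. The level was 32.9 CPM in barcode set 1 and 38.2 in barcode set 2. A UMI was found in 69.7% of these cells, and the share that free RNA would give was not estimated. Cells of cluster 12 were shallower than most (median 45568 UMIs), and with every cell thinned to 20000 UMIs the share was 45.3%, against 88.8% or more in the clusters other than 12 and 13. Cluster 13, which had the lowest depth (median 28627.5 UMIs), came next with 66.4% after thinning and a Nr3c1 ratio of -0.97 (-1.11 to -0.84). Within cluster 12 the median cell held 1 Nr3c1 UMI and 2 of 109 cells held 10 or more. Of the 14 clusters, cluster 12 had the highest summed CPM of 5 vessel markers (Cldn5, Flt1, Pecam1, Rgs5 and Vtn) at 25.2 and of 4 astrocyte markers at 3.42 (lowest cluster 0.73), and 5 microglial markers were at 0. The part of vessel or astrocyte RNA in the low Nr3c1 level was not tested.

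Nr3c2 encodes the mineralocorticoid receptor (chr8:76899442-77245012, plus strand), which binds corticosterone with high affinity in brain. It varied far less over the clusters and had a UMI in 56.7% of cells. Levels were highest in clusters 1 (25.2 CPM), 6 (24.4) and 4 (24.3) and lowest in clusters 8 (12.5), 12 (12.1) and 10 (12.0). No 2 neighbours in this order had intervals apart, and 4 of 13 pairs were separated in both barcode sets. Clusters 2 to 6 had 18.3 CPM and clusters 7 to 14 had 15.1, a log2 ratio of 0.28 (0.16 to 0.41). Since Nr3c2 in cluster 12 lay within the range of the other clusters while Nr3c1 did not, the share of Nr3c1 in the UMIs of both genes was 75.0% (69.0 to 80.3) in cluster 12 and between 87.2% and 93.6% in the others. This share compares clusters and not the abundance of the 2 receptors, since transcripts of different genes can be captured unequally.

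In cluster 12, 4 of the 7 genes were lower by 2-fold or more than in all other cells (Nr3c1, Pgr, Thrb and Crym) and 0 were higher. Of all genes with a UMI, 9.45% were lower by that margin and 8.29% higher. Crym rested on 1 UMI and Thrb on 8 UMIs in cluster 12, and 2 of the 4 remained among genes with at least 10 UMIs on both sides, where 4.97% of all genes were lower.

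Genes known to respond to glucocorticoids were unevenly distributed in the same cluster. Of 9 such genes with at least 10 CPM in some cluster, 4 had their lowest level of the 14 clusters in cluster 12, as did 13.1% of all genes at that level. These were Sgk1, a kinase induced by corticosteroids, Per1, a clock gene, Zbtb16, a transcriptional repressor, and Nfkbia, an inhibitor of NF-kappa B. Against the remaining cells, log2 ratios were -1.07 (Sgk1), -0.86 (Per1), -2.15 (Zbtb16) and -0.62 (Nfkbia). Tsc22d3, which encodes the glucocorticoid-induced leucine zipper, had a ratio of -0.07 (-0.23 to 0.09) and Dusp1 one of -0.00 (-0.27 to 0.26). The metallothionein gene Mt1, by contrast, had its highest level in cluster 12 (80.1 CPM, log2 ratio 1.19), so the list did not move one way.

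Of 10 chaperones and co-chaperones of steroid receptors, 5 had their lowest level in cluster 12, beside the 13.1% of all genes. Hsp90aa1 (1181 CPM), Hsp90ab1 (1989), Hsp90b1 (481) and Hspa8 (1671) had log2 ratios between -0.37 and -0.26. Fkbp5, a co-chaperone that is itself a glucocorticoid target, had the largest difference of the 10, with 5.03 CPM in cluster 12 and 16.5 in other cells (log2 ratio -1.72, -2.35 to -1.15). Fkbp4, another co-chaperone of the list, had its highest level there (201 CPM). Of 10 receptor partners and coregulators, 5 had their highest level in cluster 12 (Rxrb, Ncoa1, Ncoa2, Ncoa3 and Ncor1), as did 15.0% of all genes. The coactivator gene Ncoa2 had 50.9 CPM there and 30.6 elsewhere, a log2 ratio of 0.74 (0.55 to 0.92).

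**Figure D2:**
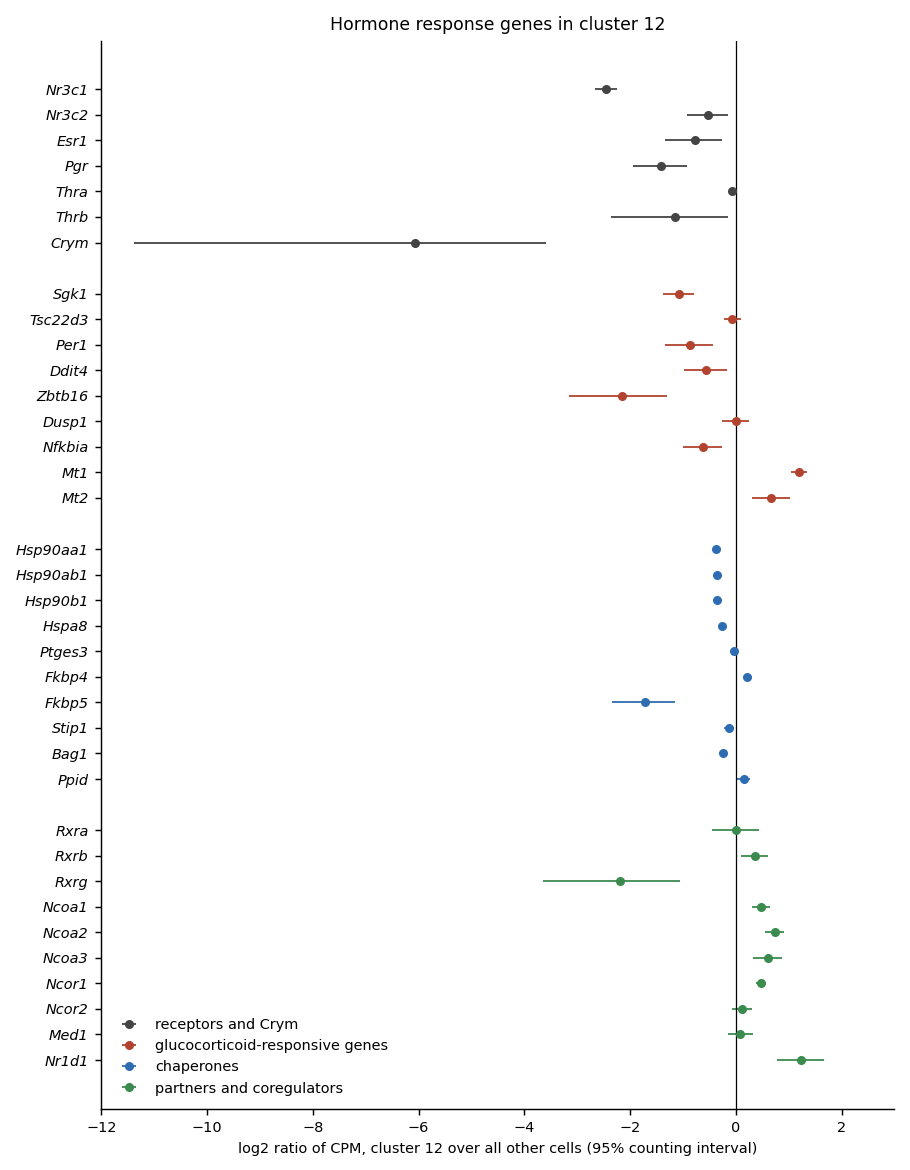
Log2 ratio of CPM in cluster 12 over all other 10X cells (x axis) for the receptor genes and Crym, glucocorticoid-responsive genes, chaperones, and partners and coregulators (y axis, colours by list). Points are ratios and lines 95% intervals for counting error. Nr3c1 (-2.45), Zbtb16 (-2.15) and Fkbp5 (-1.72) lie left of 0, and Mt1 (1.19) lies right of it.

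Esr1 encodes oestrogen receptor alpha (chr10:4611593-5005614, plus strand). It had a UMI in 28.2% of cells. Cluster 9 had 29.1 CPM (25.7 to 32.9), cluster 11 had 27.4 (23.9 to 31.2), cluster 10 had 23.4 (21.1 to 25.9) and cluster 5 had 18.4 (16.0 to 21.1), and these 4 stood above the rest. The next cluster, 8, had 6.25 CPM, and clusters 12, 7, 4, 1, 3, 13 and 6 had between 2.91 and 6.24. When the 7 genes were left out of the clustering, cluster 4 was smaller and its Esr1 level was 11.6 CPM in place of 6.09. The lowest levels were 0.84 CPM in cluster 14 (3 UMIs) and 0.49 in cluster 2 (10 UMIs in 369 cells). In clusters 9, 10 and 11 between 59.5% and 69.8% of cells had a UMI, at median depths of 61866 to 70425, and in cluster 2, at a median depth of 56611, 2.71% did. With equal depth the shares were between 32.9% and 39.6% against 1.39%.

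Clusters 9 to 11, which are Slc17a8 clusters marked by Nos1 and Crh (9), Hcrtr2 (10) and Rspo3 (11), had 25.9 CPM of Esr1 where the remaining cells had 5.46, and the log2 ratio was 2.25 (2.09 to 2.40). This comparison was added after the levels were seen. In the comparison of these clusters with all other cells, 1 of the 7 genes was higher by 2-fold or more (Esr1, with 3.22% of all genes past this margin) and 2 were lower (Thrb and Crym, with 7.37%). Clusters 2 to 6 together had 5.61 CPM of Esr1 and clusters 7 to 14 had 16.7, a log2 ratio of -1.58 (-1.75 to -1.41). Cluster 5, marked by Pdyn, was the exception among the Gad2-rich clusters. Levels varied between cells of 1 cluster as well. In cluster 9, 40.5% of cells had no Esr1 UMI and the 14 cells with the most held 36.5% of the UMIs.

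Pgr encodes the progesterone receptor (chr9:8899833-8968611, plus strand), a classical target gene of oestrogen receptors. It had a UMI in 58.4% of cells and had its highest levels where Esr1 had them, at 23.0 CPM (cluster 9), 22.7 (cluster 11) and 21.6 (cluster 10). With the 7 genes left out of the clustering, cluster 4 was highest at 24.0 CPM. Unlike Esr1, it was almost as high elsewhere. Clusters 9 to 11 had 22.3 CPM where the remaining cells had 16.2, and the log2 ratio was 0.46 (0.33 to 0.58). Cluster 2, with hardly any Esr1, had 14.6 CPM of Pgr. Cluster 12 was the lowest at 6.84 CPM (4.74 to 9.56). Against the remaining cells its log2 ratio was -1.41 (-1.94 to -0.92), with 6.47 CPM in barcode set 1 and 7.07 in set 2. No 2 neighbours in the order of the 14 levels had Poisson intervals apart, and 3 of 13 pairs were separated in both barcode sets.

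Since Pgr is known for its regulation by oestrogen receptors, the sequence before its start is shown. RefSeq (GRCm38.p6) places the first base of Pgr at chr9:8899833 on the plus strand, and the 250 bases before it span chr9:8899583-8899832. Capitals mark the letters GGGCGG, the core bound by Sp1 factors, 47 bases before the start.
Pgr promoter, 250 bases before the start: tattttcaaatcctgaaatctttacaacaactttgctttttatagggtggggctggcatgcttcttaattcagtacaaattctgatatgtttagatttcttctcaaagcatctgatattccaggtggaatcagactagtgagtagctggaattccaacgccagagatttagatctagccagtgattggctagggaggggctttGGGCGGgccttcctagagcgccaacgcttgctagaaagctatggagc
Windows of 250 bases before to 50 after each start were searched on both strands for the half-site AGGTCA of oestrogen and thyroid receptors, the half-site AGAACA of corticosteroid and progesterone receptors, and GGGCGG. Windows matched 4 of the 7 genes (Nr3c2, Pgr, Esr1 and Thrb, with 2 starts each for Esr1 and Thrb), and Nr3c1, Thra and Crym had no entry. Of 32851 windows, 16.3% held AGGTCA, 19.0% held AGAACA and 35.7% held GGGCGG. Neither half-site was found in the windows of Nr3c2, Pgr and Esr1.

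Other genes of gonadal steroid signalling were read beside Esr1 and Pgr. Of 8 genes fixed for this list, 6 were in the 10X table. In clusters 9 to 11, 2 of the 6 were higher by 2-fold or more (3.22% of all genes) and 0 were lower (7.37%). Greb1, a cofactor gene strongly induced by oestrogen, had 9.62 CPM there and 2.22 in all other cells (log2 ratio 2.12, 1.87 to 2.37). Esr2, which encodes oestrogen receptor beta, had 15.8 against 6.51 CPM (1.28, 1.11 to 1.45). Its highest level was 23.6 CPM in cluster 9, and clusters 10 and 11 were nearer to cluster 7. Among cells without an Esr1 UMI, Esr2 was found in 70.0% in cluster 9. The shares were 41.1% in cluster 10, 46.2% in cluster 11 and 49.0% in cluster 7. Cluster 5 was also high for Esr2 (19.2 CPM) and Greb1 (11.2 CPM). Cluster 12 held 0 Greb1 UMIs and 5 Esr2 UMIs, although its Esr1 level of 6.24 CPM was that of clusters 7 and 8. The membrane progestin receptor components Pgrmc1 (549 CPM) and Pgrmc2 (144 CPM) and the 5-alpha-reductase gene Srd5a1 (4.88 CPM) had log2 ratios of -0.25, 0.14 and -0.05 in the same comparison.

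Detection of Greb1 and Esr2 was compared between cells with and without Esr1. Of 663 cells with an Esr1 UMI, 35.3% had a Greb1 UMI and 52.5% an Esr2 UMI, against 6.88% and 24.5% of 1687 cells without. At equal depth the shares were 14.9% and 25.9% against 4.54% and 11.9%. Within clusters 9 to 11 Greb1 was found in 46.9% (41.6 to 52.4) of cells with Esr1 and 25.6% (19.2 to 32.8) of cells without. At equal depth the shares there were 22.7% (16.9 to 29.4) and 14.9% (11.2 to 19.3), with intervals that met. By cluster, with and without Esr1, they were 31.9% (19.1 to 47.1) and 11.5% (5.86 to 19.6) in cluster 9, 17.2% and 18.3% in cluster 10, and 24.4% and 13.1% in cluster 11, and the intervals met in each. In cluster 5 they were 13.5% and 15.2%. For Esr2 in clusters 9 to 11 the shares at equal depth were 27.6% (21.3 to 34.6) and 23.3% (18.8 to 28.3), which also met. Intervals that meet do not show that the shares are equal. These intervals treat each cell as independent, and a difference in Greb1 or Esr2 within clusters was not tested. Pgr was found in 67.6% of cells with Esr1 and 54.8% of cells without. At equal depth within clusters 9 to 11 it was found in 40.0% and 35.1%. Cells with Esr1 were deeper than cells without in clusters 5, 9, 10 and 11 (in cluster 9, a median of 64164 UMIs against 60155), which the thinned shares take into account.

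**Figure D3:**
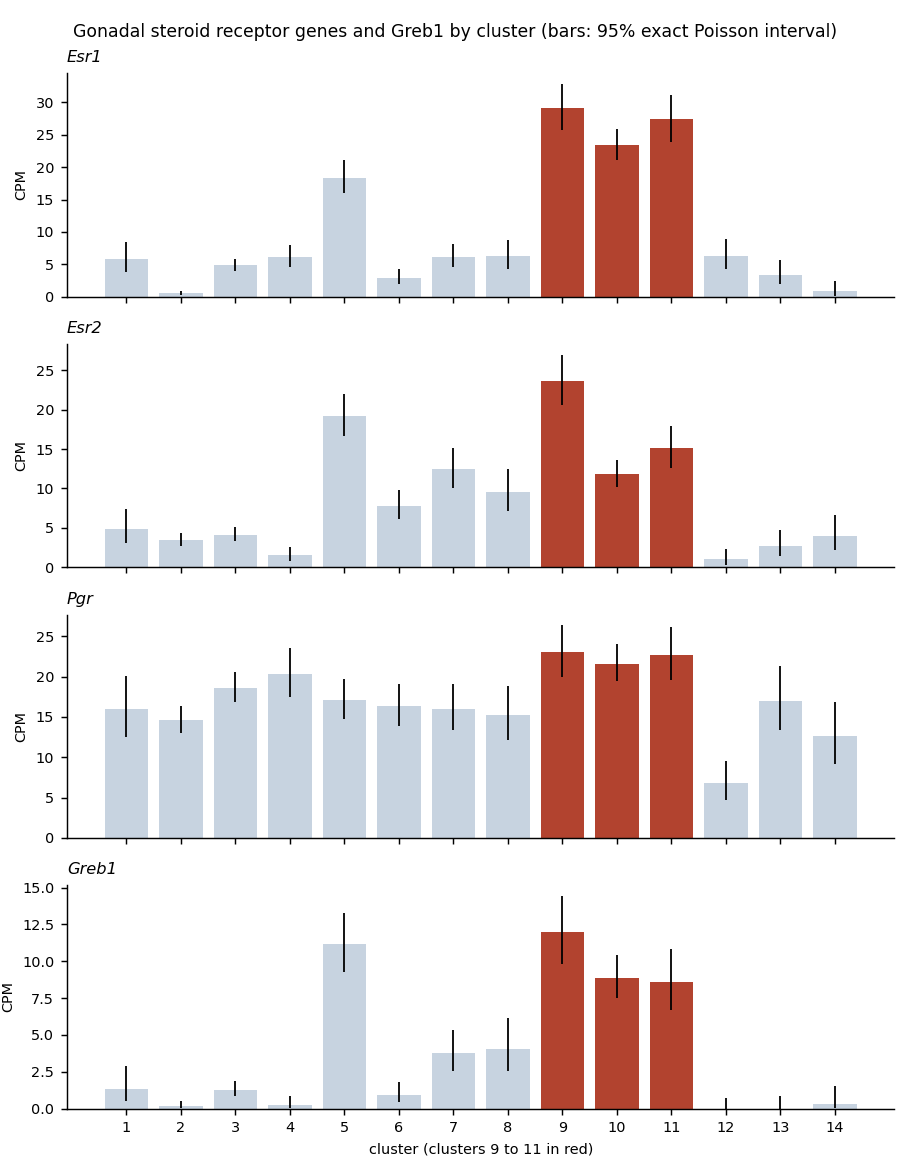
Levels of Esr1, Esr2, Pgr and Greb1 (y axes, CPM of summed UMIs) in the 14 clusters (x axis), with clusters 9 to 11 in red and 95% exact Poisson intervals as vertical lines. Esr1, Esr2 and Greb1 stand high in clusters 5 and 9 to 11, with Esr2 also at 12.4 CPM in cluster 7, while Pgr is spread over the clusters and lowest in cluster 12 at 6.84 CPM.

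Thra encodes thyroid hormone receptor alpha (chr11:98740638-98769006, plus strand), the main thyroid hormone receptor of brain. It had a UMI in 2350 of 2350 cells, and it was the gene with the smallest difference between clusters. Levels ran from 564 CPM (543 to 587) in cluster 1 and 527 in cluster 9 down to 449 in cluster 3 and 424 in cluster 14. Neighbours in this order had intervals apart in 1 of 13 pairs and were separated in both barcode sets in 0 of 13. Between clusters 2 to 6 and clusters 7 to 14 the log2 ratio was -0.08 (-0.10 to -0.05). Thra overlaps the gene of the nuclear receptor Nr1d1 on the opposite strand over 1075 bases. Nr1d1 was low in the 10X cells (569 UMIs against 65093 for Thra).

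Thrb encodes thyroid hormone receptor beta (chr14:17660261-18038090, plus strand), the form that mediates feedback in hypothalamus and pituitary. It was sparse, with 473 UMIs in all and a UMI in 16.8% of cells. It was highest in cluster 13 at 10.2 CPM (7.44 to 13.7), followed by clusters 6 (6.76), 2 (6.28) and 4 (4.60). With the 7 genes left out of the clustering, cluster 4 had 2.22 CPM. The lowest were 1.09 CPM in cluster 11 (9 UMIs) and 0.66 in cluster 1 (3 UMIs). No neighbours in this order were separated by either measure. Clusters 2 to 6 had 4.66 CPM and clusters 7 to 14 had 2.31, a log2 ratio of 1.01 (0.72 to 1.31). In the comparison of these divisions, 2 of the 7 genes were higher by 2-fold or more in clusters 2 to 6 (Thrb and Crym, with 5.58% of all genes past this margin) and 1 was lower (Esr1, with 7.82%). Thrb lay at this margin, and its log2 ratio was 0.98 with components 1 to 50, 0.90 in barcode set 1, 0.72 in thinned cells and 0.69 as a mean over cells, which leaves Crym as the gene past it.

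Cluster 13, where the log2 ratio of Thrb against the remaining cells was 1.64 (1.17 to 2.09), is the cluster of lowest depth and had the highest summed level of 4 oligodendrocyte markers (66.9 CPM, where the lowest cluster had 23.9). In this cluster 1 of the 7 genes was higher by 2-fold or more (Thrb, with 13.7% of all genes) and 2 were lower (Esr1 and Crym, with 5.3%), of which 1 was lower among genes with at least 10 UMIs on both sides, as were 2.74% of such genes. Cluster 13 also had the lowest level of 5 of 5 serotonin neuron genes (Fev, Tph2, Slc6a4, Slc18a2 and Ddc) and the highest of 5 of 5 immediate early genes (Fos, Fosb, Junb, Egr1 and Npas4), where 9.56% of all genes had their minimum and 27.2% their maximum. The part of these in the Thrb level of cluster 13 was not tested. A UMI of Thrb was found in 34 of 144 cells there.

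Thrb is read from 2 starts in RefSeq (GRCm38.p6), and its windows were the ones among the 4 genes that held receptor half-sites. Such hits are common, with AGGTCA in 16.3% and AGAACA in 19.0% of all 32851 windows, and do not set Thrb apart. The Thrb sites are shown because half-sites of this kind are what the receptors of these hormones bind. The first line comes from chr14:17660764-17660793 and the second from chr14:17981614-17981643, both on the plus strand. In the first, capitals mark AGGTCA, 184 bases before the upstream start. In the second they mark AGAACA, 7 bases before the downstream start, and the same half-site read on the opposite strand, 23 bases before it.
Thrb upstream start, bases 196 to 167 before it: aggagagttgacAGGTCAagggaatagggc
Thrb downstream start, bases 30 to 1 before it: ctaagtcTGTTCTtcacggcagcAGAACAg

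Crym encodes mu-crystallin, a cytosolic protein that binds triiodothyronine with NADPH (chr7:120186380-120202111, minus strand). Of its 1768 UMIs, 1198 lay in the 369 cells of cluster 2, which had 58.4 CPM (55.1 to 61.8) where the remaining cells had 4.96, and the log2 ratio was 3.56 (3.41 to 3.70). With clusters made from components 1 to 50 the ratio was 2.60. In cluster 2, 75.3% of cells had a UMI, and 54.0% did at equal depth. In cluster 12, at a median depth of 45568 UMIs, the share was 0.917% (1 cell). Of the other clusters, 4 (14.8 CPM), 6 (10.8) and 9 (6.54) came next, and the rest were under 5 CPM. Clusters 2 to 6 together had 22.1 CPM and clusters 7 to 14 had 2.98 (log2 ratio 2.89, 2.67 to 3.12). In the comparison of cluster 2 with all other cells, 2 of the 7 genes were higher by 2-fold or more (Crym and Thrb, with 4.5% of all genes) and 1 was lower (Esr1, with 8.0%). The interval of Thrb (log2 ratio 1.07, 0.77 to 1.37) spanned the margin, and its level in cluster 2 was 4.44 CPM in barcode set 1, lower than in set 2 by a log2 ratio of -1.10 (-1.62 to -0.58).

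The cells of cluster 2 did not share Crym evenly. A total of 91 cells had no UMI, the median cell had 2, 24 cells had 10 or more and the highest had 33. The 36 cells with the most Crym held 35.7% of the UMIs of the cluster. Cells without Crym were not shallower, with a median of 58286 UMIs in all against 56313.5 in cells with it. The level of cluster 4 depended on how its cells were drawn. When the 7 genes were left out of the clustering, cluster 4 shrank from 145 to 74 cells and held 6.67 CPM of Crym, and cluster 2 grew from 369 to 430 cells and held 53.2 CPM.

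Genes around thyroid hormone were read beside Thra, Thrb and Crym. Of 10 genes on this list, 8 were in the 10X table. Trh, which encodes thyrotropin-releasing hormone and is 1 of the markers that number cluster 2, had its highest levels in clusters 2 (62.0 CPM), 4 (35.4) and 6 (31.7). Over clusters 2 to 6 it had 27.4 CPM and over clusters 7 to 14 it had 0.62. At equal depth, 28.8% of 320 cells with a Crym UMI had Trh against 9.00% of 1977 cells without, but within cluster 2 the shares were 38.5% (31.6 to 45.7) and 45.8% (38.0 to 53.7). The response gene Klf9 was near level between these divisions (0.12, 0.05 to 0.20) and lowest in cluster 12 (21.3 CPM). Dio2, Slco1c1, Slc16a10 and the receptor gene Trhr had between 6 and 23 UMIs over all cells, and the highest of their cluster levels was 3.63 CPM, for Trhr in cluster 13.

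For each gene, the 3 genes with the most similar levels over the 14 clusters were sought among 9373 genes with at least 10 CPM in a cluster. Likeness was Pearson r of log2(CPM + 1), given without a test because the clusters are not independent samples. Nr3c1 was most like Zbtb16 (r = 0.95), Cdyl2 (0.94) and Samd4 (0.94), each lowest in cluster 12. These 3 were also like Nr3c1 over the mean levels of the 8 sorted groups (r = 0.79, 0.89 and 0.84). Esr1 was most like Ksr1 (0.85), Ppip5k2 (0.84) and Hspa4l (0.84), and Pgr was most like Tmem150c, Elavl2 and Cadm2 (0.90, 0.89 and 0.89). Thrb was most like Kctd4 (0.93), Bcl11b (0.91) and Aqr (0.90), and Crym was most like Mesdc1 (0.87), Ece1 (0.86) and Pdgfa (0.86). Nr3c2 was most like Ufsp1, Mmp16 and Cnih1 (r from 0.76 to 0.80), and Thra was most like Map1lc3b, Med23 and Med1 (r from 0.76 to 0.84). Over the sorted groups the values were near 0 for the companions of Nr3c2 (0.07 to 0.19), and -0.40, -0.21 and 0.23 for those of Thra. They were 0.80, -0.09 and 0.68 for those of Esr1, 0.69, 0.63 and 0.68 for those of Pgr, and 0.90, 0.71 and 0.37 for those of Thrb. For Crym they were 0.61 (Ece1) and -0.24 (Pdgfa), and Mesdc1 had no value.

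The barcode sets differed for some of the genes, and sex, genotype and run cannot be told apart between the sets. With all cells together, 0 of the 7 genes differed by 2-fold or more (3.82% of all genes were higher in set 1 by that margin and 3.17% lower). Crym came closest, with 19.2 CPM in set 1 and 9.71 in set 2, but set 1 held 230 of the 369 cells of cluster 2. With the 14 clusters weighted equally the log2 ratio was 0.04. Within clusters, Crym was higher in set 1 in 7 and lower in 7. It was 14.1 against 3.19 CPM in cluster 9 and 10.6 against 2.42 in cluster 10, and 6.03 against 16.7 in cluster 4.

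Thra and Esr1 were more often higher in set 1. Thra was higher in set 1 in 14 of 14 clusters, with intervals above 0 in 13, although the difference was small (equal-weight log2 ratio 0.20). Of 12766 genes with a UMI in each cluster, 6.11% were higher in set 1 in 14 clusters. Esr1 was higher in set 1 in 12 of 14 clusters, with intervals above 0 in 6 (equal-weight log2 ratio 0.53), and 17.1% of genes were higher in at least 12. Its largest log2 ratios were in cluster 4 (16.1 against 4.03 CPM, 27 and 118 cells) and cluster 8 (10.4 against 3.60 CPM). Thrb was lower in set 1 in 12 of 14 clusters, as were 11.2% of genes in at least 12, but its interval lay below 0 in 2 clusters and above it in 1. Equal-weight log2 ratios were 0.03 for Nr3c1, 0.13 for Nr3c2 and -0.04 for Pgr, and the median of all genes was 0.04.

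**Figure D4:**
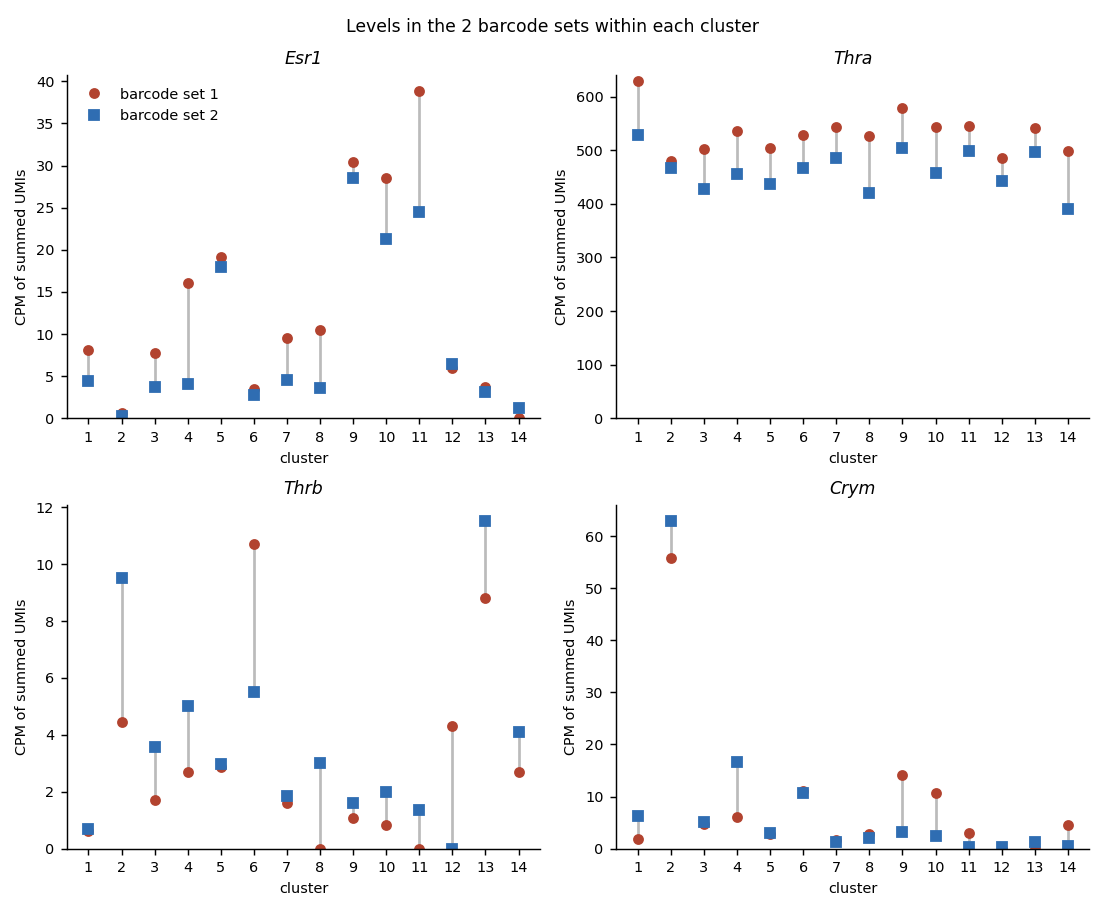
Levels of Esr1, Thra, Thrb and Crym (y axes, CPM of summed UMIs) in barcode set 1 (red circles) and barcode set 2 (blue squares) within each of the 14 clusters (x axis), joined by grey lines. Thra is higher in set 1 in 14 of 14 clusters and Esr1 in 12 of 14, while Crym is split 7 and 7.

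In manually sorted cells, levels are CPM of reads per cell, given as the lowest, median and highest cell. Nr3c1 had reads in 64 of 70 cells. In the P2ry1-cre cDR cells, 9 of 10 of which had reads of the cluster 12 marker Met, Nr3c1 had 0, 3.04 and 117 CPM, with reads in 5 of 10 cells. The 6 Slc6a4-cre cells of the same subregion had 13.9, 91.7 and 135 CPM. The difference between the 2 medians was -5.08 on the log2(CPM + 1) scale, and 25.5% of genes were lower by 1 or more in this comparison. It was -2.97 with a pseudocount of 10, -3.57 as a difference of means and -3.48 at P63, where the P2ry1-cre group holds 1 cell. The Slc6a4-cre cDR cells had the highest median of the 8 groups for summed astrocyte (27.2 CPM), oligodendrocyte (43.4) and microglial (1.20) markers, and the part of these in the difference was not tested. The ranges overlapped, because 3 of the P2ry1-cre cells had 35.4, 64.8 and 117 CPM. Medians in the other 6 groups ran from 86.8 CPM in Crh-cre rDR cells to 249 in Slc6a4-cre dlDR cells.

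Medians of Nr3c1 differed by age within groups, in both directions. In dlDR the P90 cells had 247, 322 and 457 CPM and the P63 cells 80.2, 138 and 252. The medians at P90 and P63 were 205 and 88.6 CPM in vmDR and 165 and 75.7 in dmDR. In vmDR the 4 P90 cells (160 to 349 CPM) lay above the 4 P63 cells (73.8 to 151 CPM), and in dlDR and dmDR the ages overlapped. Npy2r-cre rDR cells had medians of 167 CPM at P87 (6 cells) and 45.2 at P77 (3 cells). In 2 groups the older cells had the lower median. Crh-cre rDR had medians of 69.6 CPM at P119 (6 cells, 43.2 to 191) and 204.7 at P83 (2 cells, 103 and 306). Npy2r-cre cDR had medians of 106 at P87 (6 cells) and 158 at P77 (4 cells). The ages overlapped in each of these Crh-cre and Npy2r-cre groups. Animal and collection day cannot be told apart from age here.

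Of the genes named above for low levels in cluster 12, Zbtb16, Fkbp5, Per1, Nfkbia and Sgk1 were read in the P2ry1-cre cells too. The Hsp90 genes, Hspa8 and Klf9 are not given here. In this comparison the median of log2(CPM + 1) was lower by 1 or more for 25.5% of genes. The part of the high glial marker levels of the Slc6a4-cre cDR cells was not tested. Zbtb16 had reads in 0 of 10 cells, against 6 of 6 Slc6a4-cre cDR cells (1.83, 7.22 and 41.8 CPM). Fkbp5 had reads in 1 of 10 (highest 0.19 CPM), against 5 of 6 (0, 23.6 and 47.9 CPM). Per1 had reads in 6 of 10 (median 0.79 CPM), against 6 of 6 (median 13.3), and Nfkbia in 5 of 10 (median 0.095 CPM), against 6 of 6 (median 39.0). Sgk1 was different, with reads in 7 of 10 P2ry1-cre cells and a median of 73.6 CPM, above the 52.6 CPM of the Slc6a4-cre cDR cells.

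Nr3c2 had reads in 69 of 70 sorted cells. Its median was highest in Slc6a4-cre vmDR cells (6.86, 23.7 and 48.2 CPM), and the other 7 medians lay between 6.31 and 11.0 CPM. The P2ry1-cre cells (0, 6.31 and 58.3 CPM) and Slc6a4-cre cDR cells (4.18, 8.11 and 16.7 CPM) overlapped widely. As over the clusters, Nr3c2 was thus less uneven than Nr3c1 between these groups, although this difference between the 2 genes was not tested.

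Esr1 had reads in 32 of 70 sorted cells and varied widely within each group. It had reads in 6 of 9 Npy2r-cre rDR cells (0, 10.2 and 158 CPM) and 6 of 8 Crh-cre rDR cells (0, 3.30 and 105 CPM). In P2ry1-cre cDR cells it had reads in 1 of 10. By age, Esr1 had reads in 4 of 5 dlDR cells at P63 and 0 of 5 at P90. In Npy2r-cre rDR it had reads in 3 of 3 cells at P77 and 3 of 6 at P87, and in vmDR in 2 of 4 at each age. Cells with high levels were found in 7 of the 8 groups, with maxima from 51.5 to 158 CPM outside the P2ry1-cre group. Esr2 and Greb1 each had reads in 0 of 10 P2ry1-cre cells. Esr2 had reads in 7 of 10 Npy2r-cre cDR cells (median 22.6 CPM) and Greb1 in 6 of 8 Crh-cre rDR cells (median 3.37 CPM).

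Pgr had reads in 47 of 70 sorted cells. It was found in 8 of 8 Crh-cre rDR cells (3.25, 17.0 and 56.9 CPM), 7 of 8 Slc6a4-cre vmDR cells (0, 19.5 and 67.0 CPM) and 8 of 10 Npy2r-cre cDR cells (0, 18.5 and 52.6 CPM). In P2ry1-cre cDR cells it had reads in 2 of 10, and in Npy2r-cre rDR cells in 3 of 9 (0, 0 and 41.8 CPM). The 3 were the cells of age P77, and 0 of 6 cells of age P87 had reads, of which 4 had between 756872 and 1489171 reads in all. The difference between the medians of Npy2r-cre cDR and rDR cells was 4.29 on the log2(CPM + 1) scale, with 11.1% of genes higher by 1 or more. The difference was 0.78 at P77 alone and 4.47 at P87 alone. Since the rDR median is 0, the size depends on the pseudocount, and it was 1.51 with a pseudocount of 10. Crh-cre rDR cells exceeded Npy2r-cre rDR cells by 4.17, with 16.9% of genes higher by 1 or more, and by 1.43 with a pseudocount of 10. Both Pgr comparisons were added after the levels were seen.

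Thra had reads in 70 of 70 sorted cells, and Thrb in 17. Thra medians ran from 123 CPM in Slc6a4-cre dlDR cells (94.98, 123 and 292) to 304 in Npy2r-cre rDR cells (180, 304 and 637). Within the dlDR group the P90 cells had 94.98, 114 and 125 CPM and the P63 cells 115, 232 and 292, the opposite order to Nr3c1. These libraries do not mark the strand, so reads in the 1075 bases shared with Nr1d1 cannot be assigned, and Nr1d1 itself had 1836 reads over the 70 cells. Thrb was found most often in Slc6a4-cre dlDR cells (4 of 10, highest 25.2 CPM) and dmDR cells (4 of 9, highest 5.80 CPM), and in 0 of 10 P2ry1-cre cells.

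Crym had reads in 20 of 70 sorted cells, most often in Slc6a4-cre dlDR cells, where 7 of 10 had reads (0, 22.1 and 437 CPM). In dmDR cells 4 of 9 had reads (0, 0 and 101 CPM), in vmDR cells 1 of 8 and in P2ry1-cre cDR cells 0 of 10. The difference between the medians of dlDR and vmDR cells was 4.48 on the log2(CPM + 1) scale, with 8.44% of genes higher by 1 or more. The ranges overlapped, and the difference was 0.00 at P63 alone and 5.33 at P90 alone, where 0 of 4 vmDR cells had reads. The vmDR median is 0, and with a pseudocount of 10 the difference was 1.66. By age, 5 of 5 dlDR cells at P90 had Crym (9.85, 39.4 and 437 CPM) against 2 of 5 at P63 (0, 0 and 54.4 CPM). In the Npy2r-cre groups the younger cells had it, with 3 of 4 cDR and 2 of 3 rDR cells at P77 and 0 of 6 in each group at P87. Trh had reads in 7 of 10 dlDR cells (median 51.5 CPM) and in 0 of 8 vmDR cells.

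**Figure D5:**
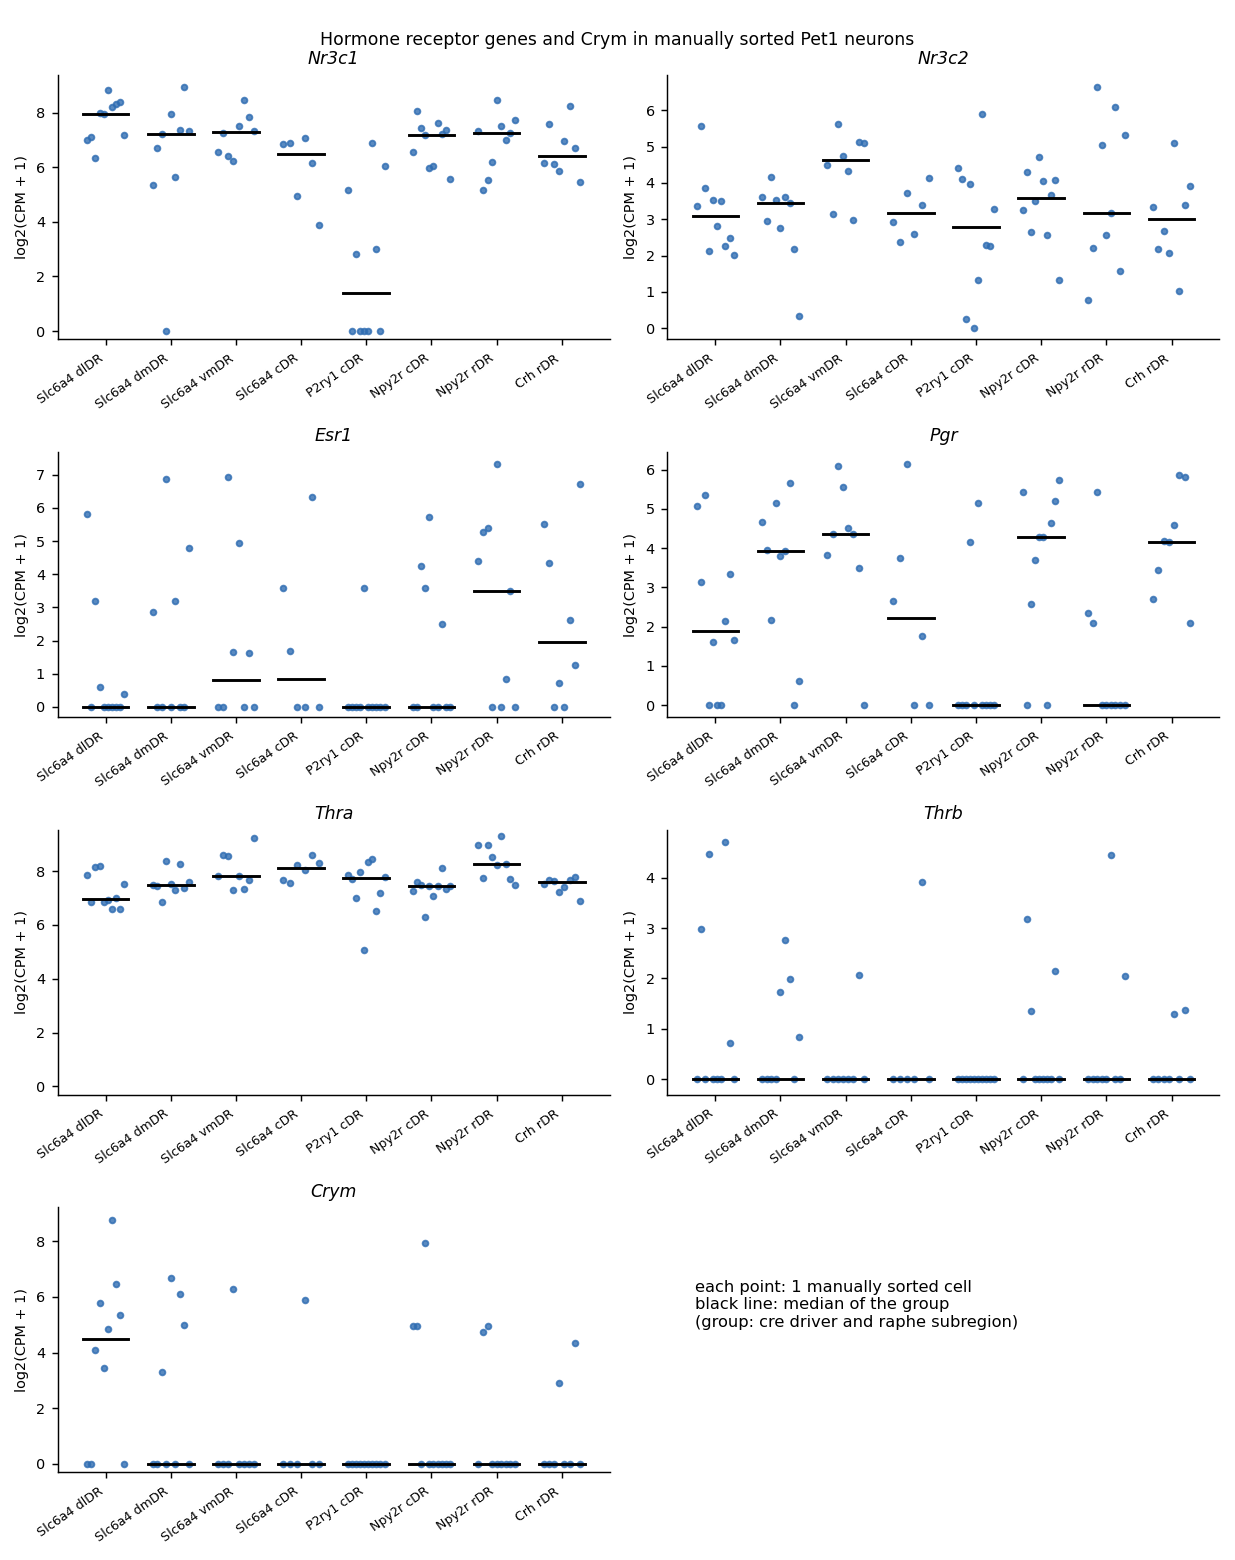
Level of each gene (y axis, log2(CPM + 1)) in the 70 manually sorted cells of the 8 groups (x axis, Cre driver and subregion). Each point is 1 cell and black lines are group medians. Nr3c1 is listed at 0 in 5 of 10 P2ry1 cDR cells, Crym has a median above 0 in Slc6a4 dlDR cells (22.1 CPM) and of 0 in the other 7 groups, and Thra has reads in 70 of 70 cells.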

How the data were processed

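The authors deposited UMI counts of the 10X cells and read counts of the manually sorted cells, neither of them normalized. Per the submitters' notes, reads were mapped to mm10 with Cell Ranger 3.0.2 (10X) or STAR 2.5.4 (manual), and the authors removed 10X cells with few genes, glial or mitochondrial transcripts, low Fev or outlying totals. Of the manual columns, 70 of 70 matched a sample by title, and 0 columns were unmapped. Clusters were rebuilt in Seurat 5.3.0 (R 4.3.3) from 2000 variable genes, principal components 1 to 50 without 6 and 7, 20 neighbours and resolution 0.9, and numbered by marker scores. CPM carry exact Poisson intervals, shares exact Clopper-Pearson intervals and ratios exact conditional intervals, each at 95%. A level of 0 UMIs was set to 3 counts for ratios. Cells were thinned to 20000 UMIs, which left out 53. Scrublet (scanpy 1.11.5) called 7 of 869 and 7 of 1481 cells doublets, and these were kept in the main values and left out in an alternative. Other work used Python 3.11.15, numpy 2.4.6, scipy 1.17.1, pandas 2.3.3 and matplotlib 3.10.9. No label ties a cell to its animal, so no test between groups was made. On data simulated for cluster 12 with Poisson error alone, the ratio had the right direction for 200 of 200 changed genes. The changes set were large, so the direction was easy to recover. The interval held the true value for 182 of the 200, fewer than its 95% calls for. Variation between cells, animals or runs was not simulated. The members, lists and clusters were chosen with earlier results of these data known. Named genes are the 7 members, genes of the fixed lists, and the 3 genes most like each member, without mitochondrial genes and unnamed gene models. Alternatives covered clustering settings, depth, doublets, barcode sets, pseudocount, size factors and age. Some genes of the lists are not reported here.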

Additional observations from a re-analysis of the deposited data

Results flagged for a closer look

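In each sorted group of 6 to 10 cells, the distance of the lowest or highest cell to its neighbour was set against the range of the group, in 54 combinations of a gene and a group. In 10 the cell stood apart, where chance alone gives about 1 in 20 such groups and where many groups hold cells at 0. In 5 of the 10 each remaining cell was at 0, which fixes the outcome. High cells were found for Pgr in Npy2r-cre rDR (41.8 CPM, next 4.11), Thrb in Npy2r-cre rDR (20.8, next 3.15), Esr1 in P2ry1-cre cDR (10.9, next 0), Thrb in Slc6a4-cre cDR (14.1, next 0), Crym in Slc6a4-cre cDR (58.7, next 0), Nr3c2 in Slc6a4-cre dlDR (46.5, next 13.6), Thrb in Slc6a4-cre vmDR (3.201, next 0) and Crym in Slc6a4-cre vmDR (77.3, next 0). Low cells were found for Nr3c1 in Slc6a4-cre dmDR (0, next 40.0 CPM) and for Pgr in Slc6a4-cre vmDR (0, next 10.4 CPM). The dmDR cell without Nr3c1 reads had 116 CPM of Esr1, the highest Esr1 level of its group, and 3381257 reads in all.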

How the results depend on the processing

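Of 144 alternatives over 29 results, 115 left the value within its band or its count unchanged, 28 moved it and 1 turned its direction. For 10X ratios the band was the interval for counting error. For sorted cells the band was 1 pooled standard deviation between cells either side of the difference, which is not an error of that difference. The band of Nr3c1 ran from -7.45 to -2.71, so a shift from -5.08 to -2.97 counted as within it. The count of 115 therefore includes large shifts in sorted cells. Nr3c1 in cluster 12 stayed between -2.66 and -2.31 over 10 alternatives. Crym in cluster 2 moved to 2.60 with components 1 to 50, 3.39 at resolution 1.5, 3.74 thinned, 3.36 in barcode set 1 and 3.73 in barcode set 2. Between clusters 2 to 6 and 7 to 14, Esr1 moved to -1.85 at resolution 1.5, Pgr to -0.25 in set 1, Thra to -0.027 thinned and -0.12 in set 1, and Thrb to 0.69 as a mean over cells. Esr1 in clusters 9 to 11 moved to 2.44 at resolution 1.5; this comparison and those of Pgr in sorted cells were added after seeing the data. Between the barcode sets, with clusters weighted equally and without cluster 2, both chosen after seeing the data, Nr3c1 was 0.029 and -0.043 (turned), Esr1 0.53 and 0.45, Thra 0.20 and 0.21, Crym 0.038 and 0.19, and Pgr -0.040 with equal weights. Thinned, Thra was 0.19 and Crym 0.79. With at least 10 UMIs on both sides, the count of lower genes was 2 in cluster 12 and 1 in cluster 13. In sorted cells a pseudocount of 10 gave -2.97 for Nr3c1 (P2ry1-cre against Slc6a4-cre cDR, which was -3.57 as a difference of means and -3.48 at P63, with 1 P2ry1-cre cell), 1.66 for Crym (dlDR against vmDR), 1.51 for Pgr (Npy2r-cre cDR against rDR) and 1.43 for Pgr (Crh-cre against Npy2r-cre rDR). Within an age, Crym was 0.00 at P63 and 5.33 at P90, and Pgr 0.78 at P77 and 4.47 at P87. The cause of these shifts was not tested.

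Depth limits the sparse genes. Thrb rests on 473 UMIs, and clusters 12 and 13 are shallow. Each group is 1 sample with no named animals, and sorted groups differ in age. Nr3c1 differed by age within several groups, and Y-linked reads were found in 10 of 10 Npy2r-cre cDR, 9 of 9 Npy2r-cre rDR, 3 of 8 Crh-cre rDR, 5 of 10 P2ry1-cre cDR and 1 of 9 Slc6a4-cre dmDR cells, and in 0 of the 6 Slc6a4-cre cDR, 10 dlDR and 8 vmDR cells. Their part in the differences was not tested. No paired analysis was possible because replicate numbers only name single cells and no comparison between groups was tested.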
